A study of Rattus norvegicus with 4 samples.

Results

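The genes described here fold, check, degrade and ship newly made secreted and membrane proteins in the endoplasmic reticulum (ER). They form a list of 39 gene symbols of ER chaperones, stress sensors, degradation factors and export factors, of which 37 were found among the 22050 genes of the files. No row carried the symbol Derl3 or Mia3, so the expression of these genes is not analysed here, and they enter only the counts of promoters and of overlapping genes. The data are messenger RNA counts from whole lung of SD rats, with 2 libraries per group and 1 rat per library. On day 28 after a single 0.2 mL injection into the trachea, lungs were taken from 2 rats given bleomycin at 5 mg/kg and from 2 given normal saline. Bleomycin breaks DNA and is used to bring on lung fibrosis in rodents, and no transgene or other agent is named for either group. The labels name no age or sex.

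Proteins that enter the secretory pathway are threaded into the ER through the Sec61 channel, given sugar chains and disulfide bonds, and held by chaperones until they are folded. When unfolded protein builds up, the sensors IRE1 (gene Ern1), ATF6 and PERK start the unfolded protein response. IRE1 splices the Xbp1 message and cleaved ATF6 moves to the nucleus, and both routes raise chaperone and degradation genes. Cells with a heavy secretory load, such as surfactant-making alveolar type 2 cells, plasma cells and collagen-making fibroblasts, are known to express many of these genes at high levels.

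Many ER chaperone genes carry a known control element in the promoter, the ER stress response element (ERSE). It reads CCAAT, then 9 bases, then CCACG. A shorter form, ERSE-II, reads ATTGG, 1 base, CCACG, and a further element, UPRE, reads TGACGTGG. The promoter window in RefSeq, from 250 bases before to 50 after a gene's start, was available for 30 of the 39 genes, and both strands were searched for exact letters. ERSE was present for 8 of these 30 genes (26.7%) and in 22 of all 33469 windows (0.0657%). ERSE-II was present for 3 of 30 genes (10%) against 0.0508% of all windows, and UPRE for 3 of 30 against 0.595%. The UPRE of Hyou1 overlaps an ERSE-II. No window was in the table for Manf, Pdia3, Pdia6, Ern1, Atf6, Derl1, Sec61a1, Sec24d or Kdelr2. A match is a description of letters, and its use in these lungs was not measured.

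**Figure D1:**
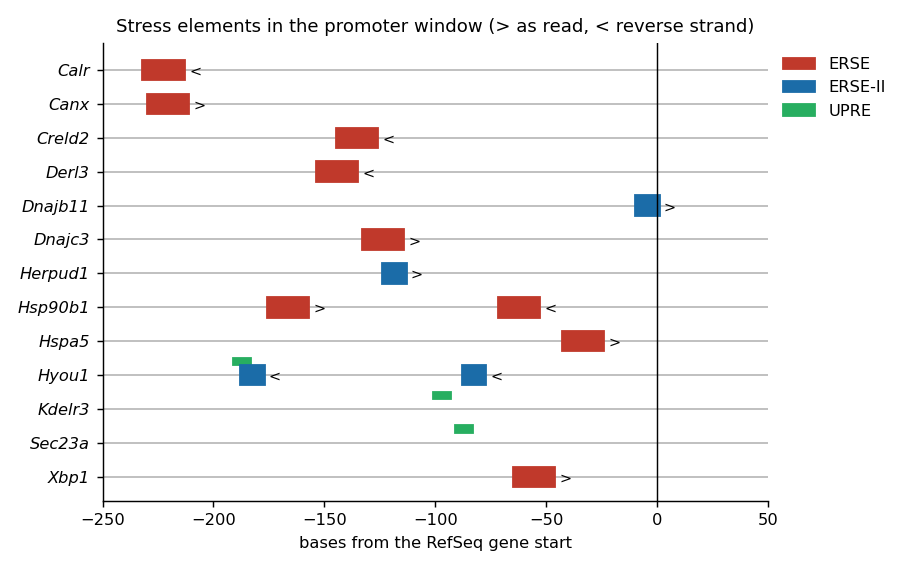
Positions of exact ERSE, ERSE-II and UPRE matches in the promoter window of the 13 genes that hold any, in bases from the RefSeq gene start (0). Arrows give the strand of ERSE and ERSE-II; Hsp90b1 holds 2 ERSE and Hyou1 2 ERSE-II.

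The elements of 9 measured genes are shown as examples of the element. Each is written with CCAAT or ATTGG first, the element in capitals and 10 flanking bases on each side, with RefSeq coordinates of the GRCr8 build.
Hspa5, ERSE, chr3:38452963-38453001, plus strand: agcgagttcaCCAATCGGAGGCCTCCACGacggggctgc
Hsp90b1, ERSE, chr7:23012441-23012479, minus strand: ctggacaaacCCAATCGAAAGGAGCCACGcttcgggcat
Hsp90b1, ERSE, chr7:23012337-23012375, plus strand: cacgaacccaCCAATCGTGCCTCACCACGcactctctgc
Dnajc3, ERSE, chr15:102432524-102432562, plus strand: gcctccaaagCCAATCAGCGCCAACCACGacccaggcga
Calr, ERSE, chr19:40213125-40213163, minus strand: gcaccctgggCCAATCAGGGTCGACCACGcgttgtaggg
Creld2, ERSE, chr7:121789229-121789267, minus strand: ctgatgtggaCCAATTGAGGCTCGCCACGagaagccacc
Xbp1, ERSE, chr14:84604548-84604586, plus strand: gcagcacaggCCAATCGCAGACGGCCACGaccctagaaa
Hyou1, ERSE-II, chr8:53602684-53602714, minus strand: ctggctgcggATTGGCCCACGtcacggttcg
Hyou1, ERSE-II, chr8:53602784-53602814, minus strand: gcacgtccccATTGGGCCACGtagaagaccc
Dnajb11, ERSE-II, chr11:91672790-91672820, minus strand: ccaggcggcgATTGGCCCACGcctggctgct
Herpud1, ERSE-II, chr19:10614811-10614841, minus strand: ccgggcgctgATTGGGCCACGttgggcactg

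The whole windows of Hspa5 and Hsp90b1, the genes of the ER forms of HSP70 and HSP90, are shown 5′ to 3′ with the ERSE in capitals. In Hspa5 the element lies 43 to 25 bases before the start, and Hsp90b1 has 2, of which the nearer lies on the opposite strand 72 to 54 bases before it.
Hspa5, chr3:38452766-38453065, plus strand: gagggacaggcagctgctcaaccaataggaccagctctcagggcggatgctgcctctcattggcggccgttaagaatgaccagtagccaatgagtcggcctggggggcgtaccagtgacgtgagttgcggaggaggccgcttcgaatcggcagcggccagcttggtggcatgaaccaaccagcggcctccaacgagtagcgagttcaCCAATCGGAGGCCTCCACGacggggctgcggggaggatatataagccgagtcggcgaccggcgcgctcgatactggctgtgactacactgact
Hsp90b1, chr7:23012244-23012543, minus strand: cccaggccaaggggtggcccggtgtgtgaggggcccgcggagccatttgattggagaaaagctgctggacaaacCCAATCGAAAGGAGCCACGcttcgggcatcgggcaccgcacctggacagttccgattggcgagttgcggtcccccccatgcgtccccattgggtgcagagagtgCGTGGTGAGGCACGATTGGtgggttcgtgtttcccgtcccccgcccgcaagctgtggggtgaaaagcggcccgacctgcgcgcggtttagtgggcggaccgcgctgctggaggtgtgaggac

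In bleomycin-treated lungs 6 of 9 listed chaperone and cochaperone genes, 8 of 9 lectin chaperone and isomerase genes and all 4 translocation genes rose. Of the 4 sensors and factors 1 rose, and none of the 7 measured degradation or 4 measured export genes passed in either direction. Differences between these roles were not tested. Of 37 genes tested, 19 rose and none fell by edgeR's quasi-likelihood test at an adjusted p under 0.05, a share of 51.4% higher. Over all 15709 tested genes the same test called 9.26% higher and 7.79% lower. Among the 8202 genes at least as abundant as the lowest of the 37 (a mean of 19.6 CPM), it called 9.66% higher. CPM are counts scaled to each library's total, adjusted by the trimmed mean of M values, and fold changes are bleomycin over control. The list was drawn up with results of these data known, so its share is a description. The median log2 change of the 37 genes was 0.53, against 0.013 for all tested genes. Both bleomycin libraries lay above both controls for 28 of the 37 genes, against 35.1% of all tested genes, and below both for 2, against 33.4%. Groups that do not overlap in either direction made up 68.5% of all tested genes, and 35.6% of the equally abundant genes had both treated libraries on top. At an unadjusted p under 0.05, 25 of the 37 genes were higher and 1 lower. Together the 37 genes made up 6838 and 6371 CPM in controls 1 and 2 and 9564 and 10043 CPM in bleomycin replicates 1 and 2. None of the 19 passed without control replicate 1 or without control replicate 2, where the remaining control takes its spread from the treated pair. All 19 kept a positive log2 change without bleomycin replicate 1 and without replicate 2. There the spread comes from the control pair alone, which lay closer together than the treated pair. Calls made with 1 treated library therefore do not compare with the main calls.

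**Figure D2:**
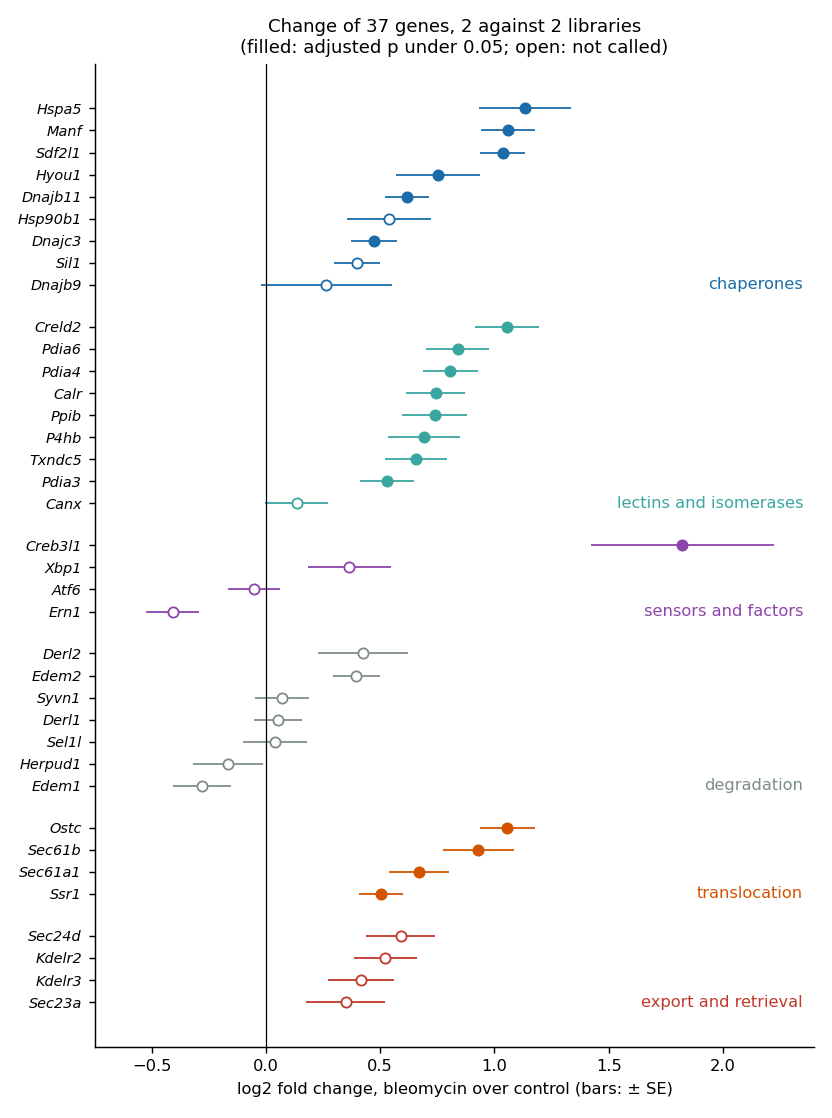
Log2 fold change (bleomycin over control, bars ± SE, 2 against 2 libraries) of the 37 genes by role. Filled points passed at an adjusted p under 0.05; chaperones, lectins and isomerases and translocation genes lie to the right of 0, with degradation genes on both sides of it.

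Counts summed over genes lay between 34683699 and 44381111 per library, so 3 counts stood for 0.0676 to 0.0865 CPM, far under the level of any of the 37 genes. The lung markers Sftpc (6823 to 15438 CPM) and Scgb1a1 (1768 to 10157 CPM) were present in every library. Heart muscle markers stood apart in control replicate 1, where 8 such genes summed to 209 CPM against 39.8 to 124 CPM in the other libraries. The labels do not say that litters or days differed. The p-values set each group difference against a spread estimated between these libraries and, in part, shared across all genes. In whole tissue, fewer cells of a type and less RNA per cell cannot be told apart.

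Among ER chaperones and their cochaperones, 6 of 9 rose and the other 3 had positive changes that did not pass. Hspa5 (ENSRNOG00000018294), which encodes BiP, the central HSP70 of the ER and the brake on all 3 stress sensors, had 484 and 429 CPM in controls 1 and 2 and 830.0 and 1174 CPM in bleomycin replicates 1 and 2. The groups did not overlap and the rise was 2.19-fold (log2 1.13 ± 0.20 SE, edgeR adjusted p = 0.026). Manf (ENSRNOG00000014201), a small stress-induced protein that binds BiP, had 68.3 and 65.6 CPM in the controls and 129 and 150.3 CPM after bleomycin, 2.09-fold higher (edgeR adjusted p = 0.013). Sdf2l1 (ENSRNOG00000001859), a partner of ER J-proteins, went from 36.4 and 39.1 CPM to 76.7 and 78.3 CPM, 2.05-fold higher (edgeR adjusted p = 0.0117). These 3 genes rose about 2-fold, and for Sdf2l1 the libraries of each group lay close together.

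Hyou1 (ENSRNOG00000010944), the large ER chaperone that releases nucleotide from BiP, had 163 and 141 CPM in the controls and 216 and 296 CPM after bleomycin (1.68-fold, edgeR adjusted p = 0.0493). The J-protein gene Dnajb11 (ENSRNOG00000001803) rose from 69.8 and 66.1 to 103 and 105 CPM, 1.53-fold (edgeR adjusted p = 0.0208). Dnajc3 (ENSRNOG00000010352), a J-protein also known as an inhibitor of PERK, rose from 53.8 and 51.3 to 70.2 and 75.6 CPM, 1.39-fold (edgeR adjusted p = 0.0363). All 3 were higher in both treated lungs by less than 2-fold.

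Hsp90b1 (ENSRNOG00000026963), the ER HSP90 known as GRP94, had 683 and 561 CPM in the controls and 790.1 and 1017 CPM after bleomycin. Its groups did not overlap, but the log2 change of 0.54 ± 0.18 did not pass (edgeR adjusted p = 0.0996). It passed by DESeq2 (adjusted p = 0.0261). Its log2 change was 0.705 without bleomycin replicate 1 and 0.329 without replicate 2. Sil1, a nucleotide release factor for BiP, was near the threshold at 30.9 and 32.1 CPM against 41.4 and 41.7 CPM (edgeR adjusted p = 0.0529). Its log2 change was 0.4 without bleomycin replicate 1 and 0.377 without replicate 2. Dnajb9, an IRE1 target that represses IRE1 through BiP, had 23.45 and 24.6 CPM in the controls, 20.5 CPM in bleomycin replicate 1 and 37.2 CPM in replicate 2 (edgeR adjusted p = 0.542). The treated rats thus lay on opposite sides of the controls for Dnajb9. Its log2 change was 0.62 without bleomycin replicate 1 and -0.25 without replicate 2.

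Of the lectin chaperones, disulfide isomerases and related folding enzymes, 8 of 9 rose. Calr (ENSRNOG00000003029), the soluble sugar-binding chaperone calreticulin, had 695 and 613 CPM in the controls and 1100.4 and 1088 CPM after bleomycin (1.67-fold, log2 0.74 ± 0.13, edgeR adjusted p = 0.0257). Its membrane-bound relative calnexin, Canx (ENSRNOG00000003343), had 684 and 662 CPM in the controls and 674 and 803 CPM after bleomycin, with a log2 change of 0.13 ± 0.14 (edgeR adjusted p = 0.522). For Canx bleomycin replicate 1 lay between the controls, while for Calr both treated libraries lay above them; the difference between the genes' changes was not tested.

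Creld2 (ENSRNOG00000004659), a stress-induced protein with isomerase activity, rose most in this group, from 30.9 and 28.6 CPM to 55.2 and 68.4 CPM (2.08-fold, edgeR adjusted p = 0.0166). Among the listed protein disulfide isomerase genes, Pdia6 (ENSRNOG00000050197) had 298 and 267 CPM in the controls and 548 and 463 CPM after bleomycin (1.79-fold, edgeR adjusted p = 0.0233). Pdia4 (ENSRNOG00000006228) had 206 and 189 CPM against 327 and 365 CPM (1.75-fold, edgeR adjusted p = 0.0193). Both bleomycin libraries were well above both controls for these isomerases. Pdia3 (ENSRNOG00000015018), the partner of calreticulin and calnexin, rose less, from 599 and 567 CPM to 845 and 839 CPM (1.44-fold, edgeR adjusted p = 0.04).

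The remaining 3 genes of this group rose too. P4hb (ENSRNOG00000036689), a disulfide isomerase that is also the beta subunit of collagen prolyl 4-hydroxylase, had 625 and 584 CPM in the controls and 1085 and 867 CPM after bleomycin (1.61-fold, edgeR adjusted p = 0.0417). Ppib (ENSRNOG00000016781), the proline isomerase cyclophilin B, which takes part in collagen prolyl 3-hydroxylation, had 150.25 and 161 CPM against 288 and 232 CPM (1.67-fold, edgeR adjusted p = 0.0298). Txndc5 (ENSRNOG00000013469), an isomerase with thioredoxin domains, had 177 and 182 CPM against 312 and 254 CPM (1.58-fold, edgeR adjusted p = 0.0343). For all 3 the groups did not overlap and bleomycin replicate 1 was the higher treated library.

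The 3 measured genes of the classic sensors and their factor did not pass, whereas a tissue-restricted relative of ATF6 did. Ern1 (ENSRNOG00000012864) had 71.8 and 69.2 CPM in the controls and 49.04 and 57.2 CPM after bleomycin, a log2 change of -0.41 ± 0.12 (edgeR adjusted p = 0.0683). It was 1 of only 2 genes of the list whose treated libraries both lay below both controls. The log2 change of Ern1 was -0.54 without bleomycin replicate 2 and -0.305 without replicate 1, and by DESeq2 it passed as lower. Atf6 (ENSRNOG00000024632) had 132 and 128 CPM against 116 and 134 CPM (edgeR adjusted p = 0.776), overlapping groups with a log2 change of -0.05 ± 0.11. Xbp1 (ENSRNOG00000010298), the factor made from the spliced message, had 174 and 154 CPM in the controls and 178 and 245 CPM after bleomycin (edgeR adjusted p = 0.205). Without bleomycin replicate 1 the log2 change of Xbp1 was 0.57, and without replicate 2 it was 0.099. Counts per gene do not separate spliced from unspliced Xbp1, and protein cleavage of ATF6 was not measured.

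Creb3l1 (ENSRNOG00000005413) encodes OASIS, a membrane-bound factor of the ATF6 type known to drive collagen and secretory genes in bone. It had the largest rise of the 37 genes, from 10.6 and 9.35 CPM in the controls to 48.7 and 21.8 CPM in bleomycin replicates 1 and 2. The groups did not overlap and the change was 3.54-fold (log2 1.82 ± 0.40, edgeR adjusted p = 0.0399). The log2 change of Creb3l1 was 1.13 without bleomycin replicate 1 and 2.28 without replicate 2, so the size of the rise rests largely on replicate 1.

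**Figure D3:**
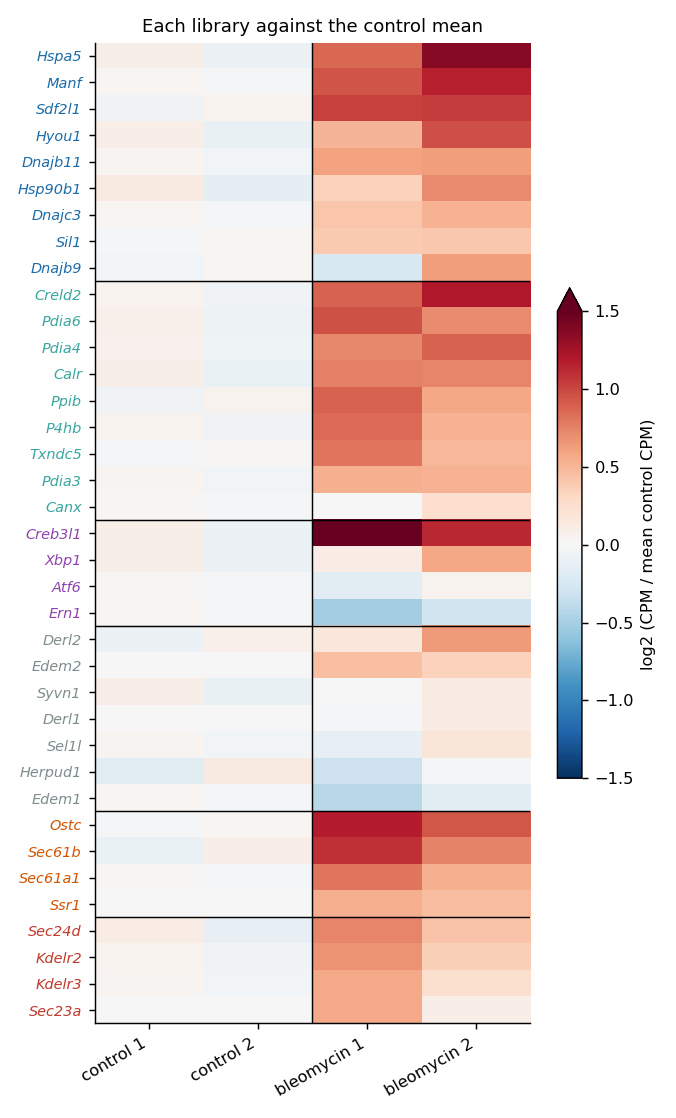
Log2 ratio of each library's CPM to the mean of both controls for the 37 genes, ordered by role (lines) and by fold change, with names coloured by role. Hspa5 is darkest in bleomycin replicate 2 and Creb3l1 in replicate 1, where its colour is at the end of the scale.

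Genes of ER-associated degradation, which returns misfolded proteins to the cytosol for destruction, did not pass in either direction for any of the 7 measured (adjusted p between 0.0542 and 0.867 by edgeR). Only Edem2 had an unadjusted p under 0.05, and by DESeq2 none of the 7 passed either. Sel1l and Syvn1, the adaptor and the ubiquitin ligase HRD1 of the core complex, had log2 changes of 0.04 ± 0.14 and 0.07 ± 0.12. Sel1l had 256 and 241 CPM in the controls and 228 and 283 CPM after bleomycin, and Syvn1 83.1 and 71.9 CPM against 78.1 and 84.6 CPM. The channel genes Derl1 and Derl2 had log2 changes of 0.05 ± 0.11 and 0.42 ± 0.20. The treated and control values of Derl1, Sel1l and Syvn1 overlapped, while those of Derl2 (15.8 and 17.8 CPM against 18.8 and 26.2 CPM) did not. Without bleomycin replicate 1 the log2 change of Derl2 was 0.64, and without replicate 2 it was 0.147.

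The mannosidase-like genes Edem1 and Edem2 take part in marking glycoproteins for degradation. Edem1 (ENSRNOG00000055365) had 229 and 220.2 CPM in the controls and 168 and 202 CPM after bleomycin, a log2 change of -0.28 ± 0.13 (edgeR adjusted p = 0.18). Edem2 (ENSRNOG00000019299) had 38.97 and 39.2 CPM against 53.3 and 49.5 CPM, a log2 change of 0.40 ± 0.10 (edgeR adjusted p = 0.0542). Without bleomycin replicate 2 the log2 change was -0.43 for Edem1 and 0.43 for Edem2. Without replicate 1 it was -0.157 for Edem1 and 0.337 for Edem2. Herpud1, a membrane protein that assembles the degradation complex and whose promoter holds an ERSE-II, had 91.8 and 112 CPM in the controls and 82.1 and 99.6 CPM after bleomycin (edgeR adjusted p = 0.473). Its groups overlapped.

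All 4 measured genes of entry into the ER and of sugar-chain attachment rose. Ostc (ENSRNOG00000023322), a subunit of the oligosaccharyltransferase, had 39.4 and 40.7 CPM in the controls and 90.4 and 76.2 CPM after bleomycin (2.08-fold, log2 1.06 ± 0.12, edgeR adjusted p = 0.0132). Sec61b (ENSRNOG00000006345), the beta subunit of the translocation channel, had 42.1 and 48.4 CPM against 96.5 and 76.1 CPM (1.91-fold, edgeR adjusted p = 0.0233). Sec61a1 (ENSRNOG00000013743), the pore itself, had 174 and 171 CPM against 299.8 and 248 CPM (1.59-fold, edgeR adjusted p = 0.0306). Each channel subunit was higher in both treated lungs. Ssr1 (ENSRNOG00000014165), a subunit of the translocon-associated TRAP complex, rose 1.42-fold, from 90.8 and 90.3 CPM to 132 and 125 CPM (edgeR adjusted p = 0.0302).

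None of the 4 measured export and retrieval genes passed. Both treated libraries lay above both controls for 35.1% of all tested genes, and for each of these 4. Their log2 changes lay between 0.35 and 0.59 and their adjusted p by edgeR between 0.0553 and 0.207, and 3 of the 4 had an unadjusted p under 0.05. Sec24d and Sec23a, coat subunits of COPII vesicles that carry procollagen out of the ER, had 78.5 and 66.8 CPM against 121 and 97.6 CPM, and 38.9 and 38.6 CPM against 57.35 and 41.5 CPM. Kdelr2 and Kdelr3, receptors that bring ER residents such as BiP back from the Golgi, had 58.2 and 54.1 CPM against 89.4 and 71.9 CPM, and 28.6 and 27.2 CPM against 41.5 and 33.1 CPM. Without bleomycin replicate 2 their log2 changes lay between 0.549 and 0.723, and without replicate 1 between 0.093 and 0.422. By DESeq2 Sec24d (DESeq2 adjusted p = 0.0105) and Kdelr2 (DESeq2 adjusted p = 0.022) passed as higher.

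Levels per length were compared with the authors' FPKM, which are counts scaled to transcript length and to each library's total. In the controls Calr stood highest at a mean of 350.4 FPKM, followed by Pdia3 at 309.6, P4hb at 242.6, Hsp90b1 at 208 and Hspa5 at 178 FPKM. The lowest were Creb3l1 at 3.77, Sec23a at 12.35, Ern1 at 14.3 and Derl2 at 14.5 FPKM. After bleomycin Calr was at 587, Pdia3 at 448, P4hb at 393, Hspa5 at 391 and Hsp90b1 at 303 FPKM. The mean of Hspa5 was above that of Hsp90b1 after bleomycin and below it in the controls. Ern1 was the lowest of the 37 after bleomycin at 10.8 FPKM, followed by Creb3l1 at 13.4 FPKM.

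The treated rats differed from each other by role. All 9 chaperone and cochaperone genes were higher in bleomycin replicate 2, by a median log2 ratio of replicate 1 to replicate 2 of -0.22. For Sil1, Dnajb11 and Sdf2l1 the replicates were nearly equal, at 1.008-fold, 1.02-fold and 1.021-fold higher in replicate 2. The widest gap was that of Dnajb9, 1.82-fold higher in replicate 2. All 8 translocation, export and retrieval genes were higher in replicate 1, with medians of 0.26 and 0.32. Lectins and isomerases were split, 6 higher in replicate 1 and 3 in replicate 2, with Calr (1.012-fold) and Pdia3 (1.007-fold) only just higher in replicate 1. In replicate 2, 6 of 7 degradation genes were higher. Creb3l1 was 2.24-fold higher in replicate 1. Over all tested genes 51.2% were higher in replicate 1 and the median log2 ratio was 0.009. With 1 library on each side there is no test of these differences.

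Markers of the cell types that use this machinery also differed between the treated rats. Fibroblast markers summed to 15869 CPM in bleomycin replicate 1 and 8595 CPM in replicate 2, with 10 of 12 higher in replicate 1. Most of each sum came from the collagen genes Col1a1 (5168 and 1968 CPM), Col1a2 (1774 and 895 CPM) and Col3a1 (7470 and 4328.5 CPM). Postn (433 and 599 CPM) and Tcf21 (126 and 159 CPM) were higher in replicate 2. Alveolar type 2 markers summed to 28934 and 46561 CPM, and all 10 were higher in replicate 2. Their part in the pattern was not tested.

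**Figure D4:**
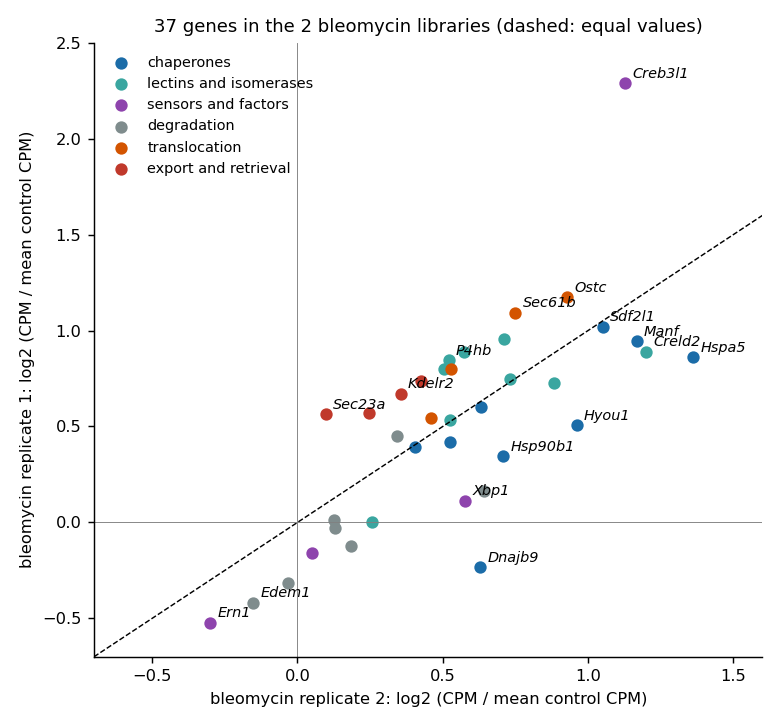
Log2 ratio to the control mean in bleomycin replicate 1 (vertical) and replicate 2 (horizontal), each point a gene, coloured by role. Chaperones lie below the dashed line of equal values, some of them close to it, and translocation and export genes above it. Creb3l1 stands apart at the top.

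Between the groups the marker lists moved as follows. Of 12 fibroblast markers 8 rose and none fell, and their sum went from 3579 and 3603 CPM in controls 1 and 2 to the values above. In each library most of this sum came from the same collagen genes. The 4 markers that did not pass were Pdgfra, Pdgfrb, Dcn and Postn, with log2 changes of -0.10, 0.59, 0.29 and 0.05. Of 10 macrophage markers 7 rose, with sums of 1505 and 1682 CPM in the controls and 3978 and 3455 CPM after bleomycin. Of 9 measured plasma cell markers none passed, and their sums were 873 and 913 CPM against 843 and 1119 CPM. Most of each sum came from Sdc1 (473 and 439 CPM against 457 and 501 CPM) and Ighm (233 and 290.5 CPM against 226 and 383 CPM). Jchain, which joins secreted antibodies, had 63.8 and 67.1 CPM in the controls and 53.9 and 122 CPM after bleomycin, and Mzb1, a plasma cell chaperone, had 2.23 and 4.15 CPM against 3.65 and 6.72 CPM. Of the 9 plasma cell markers 6 had a positive log2 change. The other 3 were Tnfrsf17 (-0.335), Prdm1 (-0.42) and Cd38 (-0.15). Only Irf4 had groups that did not overlap, at 6.92 and 8.98 CPM against 16.1 and 12.3 CPM (edgeR adjusted p = 0.0591). Of 10 alveolar type 2 markers none passed, with sums of 47862 and 47732 CPM in the controls. All 8 alveolar type 1 markers fell, and 4 of 7 endothelial markers fell and 1 rose. Of 8 tested club and mucous cell markers 2 fell and none rose. No marker list had a member at 0 in both controls. The part of these cell types in the changes of the ER genes was not tested.

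A wider list of 139 other genes of the same pathways, drawn up by role, gave 130 tested genes, of which 12 rose and 2 fell. Those are 9.23% and 1.54% of the list, against 9.26% and 7.79% of all tested genes, so the share that rose was near the background. DESeq2 called 25 of the 130 higher (19.2%), against 12.6% higher and 11.1% lower of all genes it tested. The median log2 change was 0.21, and 102 of the 130 genes had a positive change, against 51.1% of all tested genes. Of 27 other translocation, signal peptidase and oligosaccharyltransferase genes 6 rose and none fell, with a median of 0.34. Sec11c, a catalytic subunit of the signal peptidase, rose 1.58-fold (edgeR adjusted p = 0.0275), and the oligosaccharyltransferase subunit gene Ddost, at 162 and 163 CPM against 252 and 212 CPM, rose 1.43-fold (edgeR adjusted p = 0.0481). Of 39 other export and retrieval genes 3 rose and none fell, with a median of 0.26. The small GTPase gene Arf4, a regulator of Golgi traffic, rose from 179.8 and 179.7 CPM to 296 and 256 CPM (1.53-fold, edgeR adjusted p = 0.0302).

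Of 28 other folding enzymes 2 rose and 1 fell, with a median log2 change of 0.22. Ppic, the proline isomerase cyclophilin C, rose 2.41-fold, from 48.2 and 46.1 CPM to 124 and 103 CPM (edgeR adjusted p = 0.0121). The other that rose was Clgn, a relative of calnexin best known from testis, with 0 and 8 counts in controls 1 and 2 and 60 and 54 counts in bleomycin replicates 1 and 2 (edgeR adjusted p = 0.0337). Pdia5, a disulfide isomerase, fell 1.95-fold, from 53.2 and 41.02 CPM to 23.5 and 24.7 CPM (edgeR adjusted p = 0.0223). The median log2 change of 19 other degradation genes was 0.06.

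Of 17 other sensors, transcription factors and regulators 1 rose, and the list median was -0.04. That gene was Bhlha15, which encodes MIST1, a factor of secretory cells, at 2.95 and 3.002 CPM in the controls and 7.85 and 5.54 CPM after bleomycin (2.24-fold, edgeR adjusted p = 0.0416). Eif2ak3 (the kinase PERK), Atf4 and Ddit3 (the factor CHOP) are named here for their role in the PERK arm after their values were seen. These 3 genes are not the whole arm. Eif2ak3 had 50.2 and 52.6 CPM in the controls and 46.97 and 46.1 CPM after bleomycin (edgeR adjusted p = 0.331). Atf4 had 208 and 206 CPM against 203 and 195 CPM, a log2 change of -0.06 ± 0.10 (edgeR adjusted p = 0.693). Ddit3 had 15.1 and 16.1 CPM against 13.9 and 21.0 CPM (edgeR adjusted p = 0.629). None of the 3 passed.

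**Figure D5:**
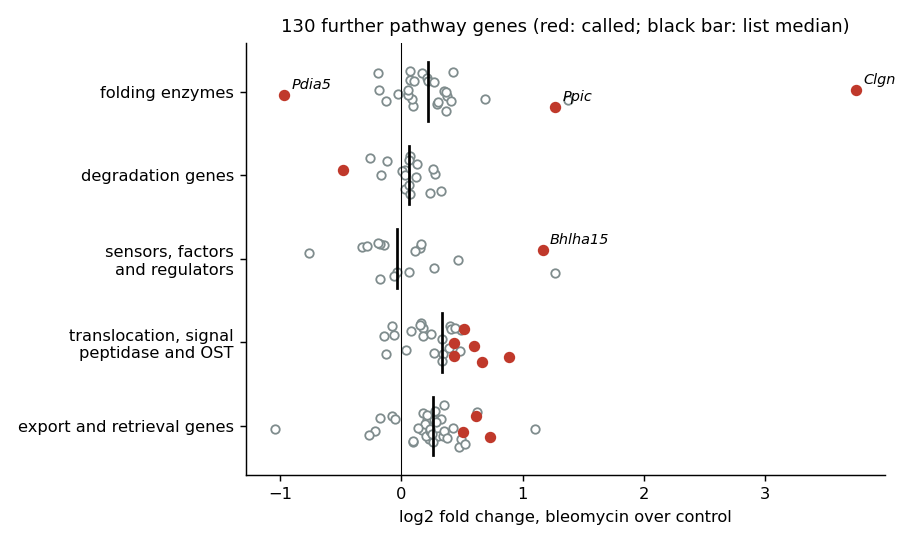
Log2 fold change (bleomycin over control) of the 130 other pathway genes, each point a gene, red where called and black bars at list medians. Points of the translocation and export lists lie mostly right of 0, with medians of 0.34 and 0.26, and Pdia5 and Clgn lie at the 2 ends of the called genes.

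Promoter elements and changes were set side by side without a test. Of the 10 measured genes with an ERSE or ERSE-II in the window, 6 rose and none fell, and their median log2 change was 0.58, in a range from -0.17 for Herpud1 to 1.13 for Hspa5. Of the 18 measured genes with a window that held neither, 9 rose and none fell, with a median of 0.46. The genes with an element that did not pass were Hsp90b1, Canx, Xbp1 and Herpud1. Ostc and Sdf2l1, which rose 2.08-fold and 2.05-fold, had neither element in the letters of this window.

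The library protocol describes no strand-marking step, so it is not known whether reads of overlapping genes on the 2 strands were told apart. The strands of overlapping genes were not compared here. In the RefSeq table of the GRCr8 assembly, 9 of the 39 genes overlap another protein-coding gene, among them Pdia3 with Catsper2, Creld2 with Alg12, Ppib with Snx22, Syvn1 with Mrpl49 and Sec23a with Gemin2. For 4 genes, Hsp90b1, Pdia4, Derl1 and Ostc, the table lists pseudogenes named after them. How reads were shared in these cases is not given in the sources used here, and the levels of these genes are uncertain to that extent.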

How the data were processed

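Poly(A) RNA was fragmented and copied with random primers, per the labels' protocols. The submitters' processing notes name CASAVA 1.8, fastp 0.18.0, HISAT2, StringTie 1.3.1, DESeq2 and the build Rnor_6.0, with no settings. The authors deposited whole-number counts per gene without normalization and FPKM values beside them. Counts were analysed with edgeR 4.0.16 in R 4.3.3: filterByExpr (minimum count 10 in at least 2 libraries, 15 in all), trimmed mean of M values, and the robust quasi-likelihood F test with group as the only term, over 15709 genes with Benjamini-Hochberg adjustment and a threshold of 0.05. The fit has 2 residual degrees of freedom, and the shared spread adds a median of 3.3. The SE is the log2 change over the square root of F. Means are over n = 2 libraries. DESeq2 1.42.0, another scaling, no low-count filter, a replicate block and each library left out were alternatives. The genes and lists were chosen with earlier results of these data known. Every gene of the main list is named; from the wider lists, the called gene with the smallest p in each direction and the most abundant called gene are named, and Clgn, Eif2ak3, Atf4 and Ddit3 besides; 1 gene that the rule would name is not reported here. Of 139 wider-list symbols 131 were found. Promoters are from RefSeq (GRCr8), which is not the build of the files; protein sequences were not used here. The control pair differed by 22.6 and the bleomycin pair by 96.7 times the sampling variance, so no library was a copy.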

Additional observations from a re-analysis of the deposited data

How the results depend on the processing

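Under RLE scaling and without a low-count filter, all 37 genes kept their direction and their side of the threshold. DESeq2 called 22 genes higher and 1 lower (Ern1, DESeq2 adjusted p = 0.0493), with the 19 calls among them; it called 25 genes of the wider list higher and, over all genes, 2065 higher and 1809 lower. With the replicate number as a block, 15 of the 37 genes rose (Sec24d passed; Hyou1, Dnajc3, Pdia3, P4hb and Ssr1 did not, at edgeR adjusted p of 0.0529 to 0.0959), and 9 genes of the wider list rose and 1 fell. The numbers were not shown to pair the rats: differences between replicates 1 and 2 correlated at -0.032 between the groups, across genes.

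Leaving out 1 library gave 0 to 25 higher and 0 to 2 lower calls among the 37 genes, 0 to 43 higher and 0 to 6 lower in the wider list, and 9 to 2750 higher and 6 to 2612 lower over all genes. The low ends came without a control, where 1 control stands alone. The high ends came without bleomycin replicate 2, where the spread comes from the control pair alone. Among uncalled genes the log2 change turned sign for Dnajb9 (-0.248 to 0.624), Canx (-0.014 to 0.251), Atf6 (-0.176 to 0.045), Sel1l (-0.14 to 0.18), Syvn1 (-0.03 to 0.169) and Derl1 (-0.045 to 0.124). The cause was not tested.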
